A study of Bos taurus with 11 samples.

Results

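The S100 genes encode small calcium-binding proteins, and 9 bovine members were chosen by symbol, of which 7 (S100A2, S100A4, S100A5, S100A10, S100A11, S100A14 and S100A16) could be matched to a transcript in both tables of normalized counts, out of 8576 transcripts listed for the GATA3 knockout (KO) and 12047 for the CDX2 KO. S100A6 and S100A13 were not analysed here. The family was picked because S100A2 and S100A5 had stood out in an earlier look at CDX2 KO against control embryos. Differences of the members in that comparison are therefore described without a p, and counts of calls there stand only as background. To ask how loss of either trophectoderm (TE) factor affects the bovine blastocyst, the study sequenced single early blastocysts of day 7 after in vitro fertilization, the TE being the outer epithelium that later contributes to the placenta. The WT control group held 3 embryos, which had been injected as zygotes with BE3 mRNA alone, BE3 being a cytosine base editor. The 4 GATA3 KO embryos received BE3 mRNA with a mix of GATA3 sgRNAs, and the 4 CDX2 KO embryos received BE3 mRNA with a mix of CDX2 sgRNAs. All 11 embryos thus carried the editor. Editing in injected zygotes can be mosaic, and the embryo is a mixture of TE and inner cells, so that fewer cells of a type and less RNA per cell cannot be told apart.

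Most S100 proteins form dimers, and each subunit has a pair of EF-hands, helix-loop-helix motifs that hold calcium in the loop. Calcium opens a hydrophobic face through which the dimer binds its targets, among them annexins, cytoskeletal proteins and p53. S100A10 is an exception, because its EF-hands have lost calcium binding and it keeps this face exposed, bound to annexin A2 (ANXA2) beneath the plasma membrane. Many members are typical of epithelia. In RefSeq's annotation of ARS-UCD2.0, S100A1, S100A13, S100A14, S100A16, S100A2, S100A3, S100A4 and S100A5 follow each other in this order with no other protein-coding gene between them, while S100A11 and S100A10 are neighbours further along the same chromosome. No coordinates are given, since the reads had been mapped to ARS-UCD1.2.

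Each embryo gave a single library, and the values are counts divided by a size factor within each table. Whole counts could be recovered from 100% of values. Totals are recovered counts summed over the transcripts listed, not sequencing depth. They were 150057 to 540775 for the embryos beside GATA3 KO and 100731 to 662962 for those beside CDX2 KO. WT control embryo 1 thus has a total of 319759 beside GATA3 KO and of 600885 beside CDX2 KO. KO embryos are named by the numbers of their columns. The base editor was directed at premature stop codons, so that transcript levels are an indirect check of the knockout. The paper checked the edits by Sanger sequencing of cDNA. It describes no obvious change of the GATA3 or CDX2 transcript in the respective KO embryos, from which the normalized counts here differ. The targeted genes were lower in every KO embryo, with GATA3 at 71.3 to 87.6 in WT control and 9.85 to 13.1 in GATA3 KO embryos, and CDX2, near the detection floor, at 6.88 to 11.1 in WT control and 1.66 to 4.66 in CDX2 KO embryos (normalized counts). CDX2 was as low in GATA3 KO embryos, at 0 to 3.45 against 4.66 to 9.73 in the WT control embryos of that table, so that its level does not set the CDX2 KO embryos apart. The TE keratin KRT8 was abundant in all libraries, at 718 or more. In the table of CDX2 KO, embryos 3 and 2 had the fewest counts, 100731 and 218797, and also the lowest sums over the 17 of 19 TE markers listed, 2831 and 4519, against 5427 to 13455 in WT control and 7381 to 9156 in the other KO embryos. As a share of the embryo's total, the TE markers of CDX2 KO embryo 2 (1.685%) were level with those of WT control embryo 3 (1.674%). CDX2 KO embryo 3 stayed lowest, at 1.206%. Differences of members, correlations between members and list medians in the CDX2 KO comparison are given with and without CDX2 KO embryos 2 and 3. Y-linked transcripts (USP9Y, DDX3Y and EIF1AY) were counted in all 3 WT control embryos, at 7 to 38 counts over both tables, in GATA3 KO embryo 6 (45 counts) and in CDX2 KO embryo 5 (39 counts), against at most 1 count in the other KO embryos. Of 15 cumulus and granulosa cell markers, 14 were listed in the table of CDX2 KO, with sums of 57.7 to 120 in WT control and 79.5 to 107 in CDX2 KO embryos, and 5 in the table of GATA3 KO, with sums of 28.1 to 67.9 and 7.39 to 37.6.

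S100A2 and S100A5 were the members with the largest differences in CDX2 KO embryos. S100A2 (NM_001034367), a protein of stratified and glandular epithelia that binds p53, gave WT control embryos 1 to 3 normalized counts of 9.52, 5.53 and 41.3, and CDX2 KO embryos 2 to 5 counts of 49.0, 161, 163 and 85.4. The WT control mean was 18.8 ± 19.6 (SD, n = 3) and the CDX2 KO mean 114.6 ± 56.8 (SD, n = 4), a ratio of 6.11. All 4 CDX2 KO embryos exceeded the highest WT control embryo, although embryo 2 exceeded WT control embryo 3 by a factor of only 1.19. The counts behind these values were 7 to 36 in WT control and 40 to 197 in CDX2 KO embryos.

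S100A5 (NM_001192215), a calcium-, zinc- and copper-binding member best known from olfactory neurons, showed the same arrangement at higher counts. WT control embryos 1 to 3 had normalized counts of 14.6, 45.0 and 73.4, and CDX2 KO embryos 2 to 5 had 245, 105, 211 and 375. The WT control mean was 44.3 ± 29.4 (SD, n = 3) and the CDX2 KO mean 234 ± 111 (SD, n = 4), a ratio of 5.28. The lowest CDX2 KO embryo was 1.43 times the highest WT control embryo, and the recovered counts were 23 to 64 in WT control and 45 to 699 in CDX2 KO embryos. The embryos ranked differently for both genes, since embryo 5 was the highest of the CDX2 KO group for S100A5 and the third highest for S100A2, whereas embryo 3 was lowest for S100A5 and close to the highest for S100A2. Both genes had the highest WT control value in embryo 3.

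**Figure D1:**
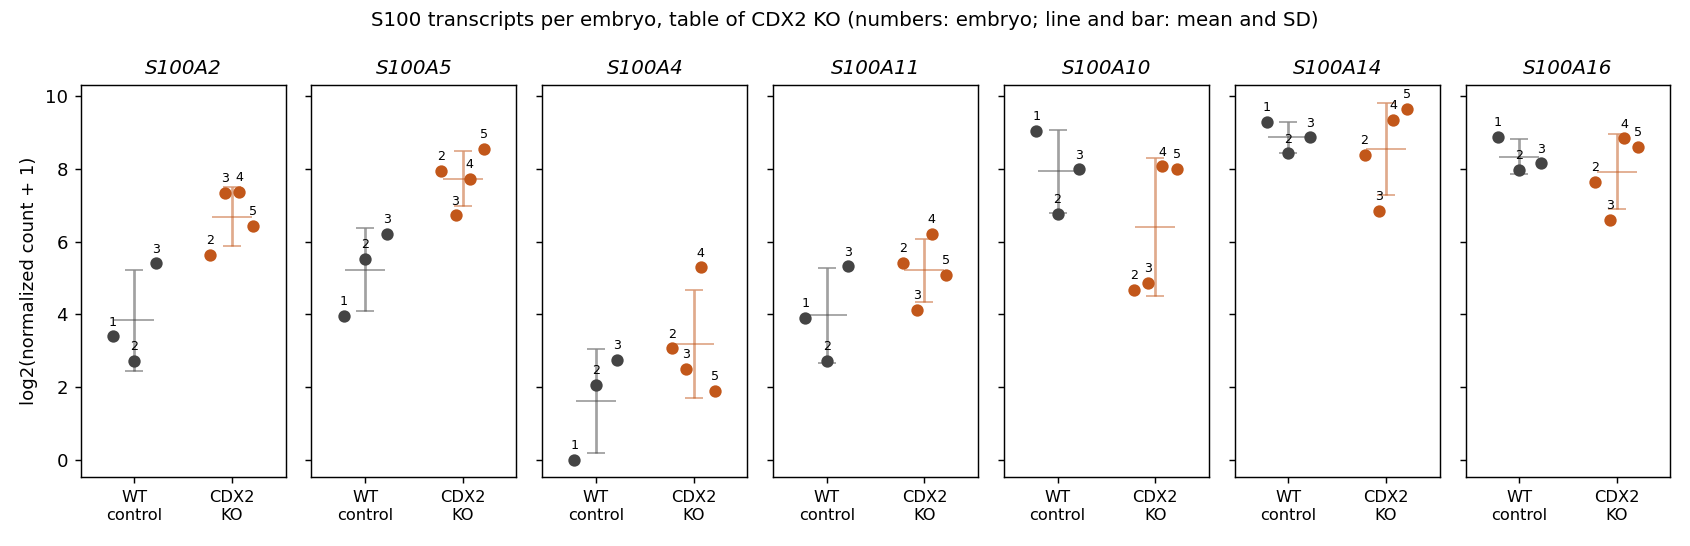
Each point is an embryo of the table of CDX2 KO, numbered, on a log2(normalized count + 1) axis, with WT control (n = 3) in grey and CDX2 KO (n = 4) in orange, and the line and bar give the mean and SD. S100A2 and S100A5 separate the groups, S100A10 splits the CDX2 KO embryos into a high and a low pair, and the groups overlap for the other members.

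On the log2(normalized count + 1) scale, on which limma was fitted to the 5719 transcripts with a mean of at least 10, the difference between CDX2 KO and WT control embryos was 2.86 (standard error 0.63) for S100A2 and 2.50 (standard error 0.57) for S100A5. The median over all transcripts tested was -0.15, and 0.06 without CDX2 KO embryos 2 and 3. A transcript was called at an adjusted p up to 0.05 together with a fold change from 1.5 upwards or from 0.6 downwards. By this rule limma called 0 of the 6 members tested and 0% of all transcripts, while 3.27% had an unadjusted p under 0.05. edgeR called 0 members and 0.0175% of transcripts, and DESeq2 called S100A2 and S100A5 and 0.175% of transcripts. In 5.88% of transcripts the groups did not overlap, 2.52% with CDX2 KO above WT control, as for these genes, and 3.36% with CDX2 KO below. Nothing is read from these counts, because the genes had been picked through this contrast. With single embryos left out, the difference ran from 2.30 to 3.64 for S100A2 and from 1.87 to 2.996 for S100A5, the sign being fixed because the groups do not overlap. Without CDX2 KO embryos 2 and 3 it was 3.06 and 2.91. A fit with a Y-linked covariate compares CDX2 KO embryo 5 alone with WT control, and gave differences of 2.60 for S100A2 and 3.32 for S100A5. Their sign too is fixed because the groups do not overlap, and nothing is read from them about Y-linked counts.

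S100A4 (NM_174595), which binds non-muscle myosin and is known from motile and metastatic cells, had a mean of 8.82 and so fell under the mean of 10 required for the fit. It stood at 0, 3.16 and 5.73 in WT control embryos 1 to 3 and at 7.35, 4.66, 38.1 and 2.68 in CDX2 KO embryos 2 to 5. Embryo 4, with 46 counts, was set apart from all others, which had at most 6 counts. S100A3, which lies beside S100A4, was highest in the same embryo, at 20.7, and second highest in embryo 2, at 13.5, against at most 4.59 in the WT control embryos. It was 0 in embryo 3 and 4.30 in embryo 5, so that the groups overlapped for both genes.

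S100A11 (NM_001098856), a partner of annexin A1 in membrane repair and keratinocyte growth control, was higher on average in CDX2 KO embryos, but the groups overlapped. WT control embryos 1 to 3 had normalized counts of 13.96, 5.53 and 39.0, and CDX2 KO embryos 2 to 5 had 41.7, 16.3, 73.8 and 32.8. Only embryos 2 and 4 exceeded every WT control embryo. The mean was 19.5 ± 17.4 (SD, n = 3) against 41.1 ± 24.2 (SD, n = 4), and the difference on the log2 scale was 1.23 (standard error 0.62). It remained above 0 with every embryo left out in turn, from 0.60 to 1.90, the lowest value being that without WT control embryo 2, and was 1.67 without CDX2 KO embryos 2 and 3. As for S100A2 and S100A5, WT control embryo 3 was the highest of its group.

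S100A10 (NM_174650) split the CDX2 KO embryos. WT control embryos 1 to 3 had normalized counts of 526, 108 and 253, whereas CDX2 KO embryos 2 to 5 had 24.5, 28.0, 268 and 256. Embryos 2 and 3 lay below every WT control embryo, with 20 and 12 counts, and embryos 4 and 5 lay within the WT control range. The difference of -1.53 on the log2 scale (standard error 0.85) rested on this pair, since it was 0.10 without them. With the Y-linked covariate, which sets embryo 5 alone against WT control, it was 0.07. With each embryo left out in turn it ran from -2.12 to -0.96. The same pair of libraries had the lowest KRT8, at 1895 and 718 against 2460 to 6698 in WT control and 3437 to 4500 in the other CDX2 KO embryos, and the low totals and TE marker sums given above, the sum of embryo 2 being low in normalized counts only. Not every TE marker followed KRT8, since GATA3 was at 123 in embryo 2, within the 96.4 to 129 of WT control. In embryo 3 it was below that range, at 30.3. The part of these totals and markers in the S100A10 values was not tested.

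ANXA2, with which S100A10 forms a heterotetramer, was also low in embryos 2 and 3, at 272 and 130, against 379 to 1174 in WT control and 766 to 1198 in the other CDX2 KO embryos. Across the 7 embryos of this table Pearson's r between S100A10 and ANXA2 was 0.88 on the log2 scale, and r between S100A10 and KRT8 was 0.81. Without embryos 2 and 3 these were 0.75 and 0.40, over 5 embryos. These points share libraries and scaling, and r is given as a description. The ratio of normalized counts of S100A10 to ANXA2, which is not corrected for length, was 0.448, 0.285 and 0.610 in WT control embryos 1 to 3. It was 0.0901, 0.214, 0.224 and 0.334 in CDX2 KO embryos 2 to 5, lower than every WT control embryo in 3 of 4. Hence S100A10 was low relative to ANXA2 also in embryo 4, where both transcripts were abundant.

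**Figure D2:**
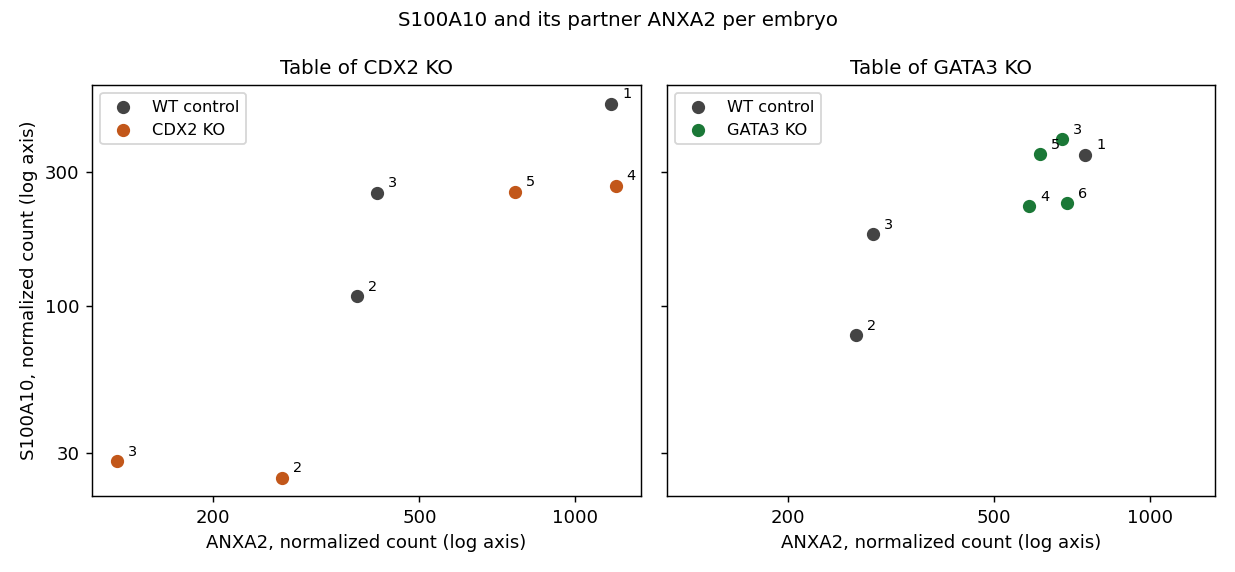
Normalized counts of S100A10 against ANXA2 on log axes, with a numbered point for each embryo and a panel for each table. Within the panel of CDX2 KO, CDX2 KO embryos 2 and 3 are lowest in both transcripts (24.5 and 28.0 for S100A10). The 4 GATA3 KO embryos lie close together in ANXA2, from 585 to 691.

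S100A14 (NM_001079634) and S100A16 (NM_001075218), neighbouring genes of epithelial cells, had similar means in both groups, but the CDX2 KO embryos spread widely. S100A14 was at 632, 344 and 468 in WT control embryos 1 to 3 and at 335, 114, 651 and 808 in CDX2 KO embryos 2 to 5. S100A16 was at 473, 250 and 284 and at 199, 95.5, 458 and 392 in the same embryos. CDX2 KO embryos 2 and 3 lay below every WT control embryo for both genes in normalized counts, and embryo 3 was lowest, with 49 and 41 counts. In CPM, recovered counts scaled to the embryo's total over the listed transcripts, embryo 2 was within the WT control range for S100A14. It was at 1248 against 1126 to 1659. Embryos 4 and 5 lay above every WT control embryo for S100A14. For S100A16 they were within the WT control range in normalized counts, while in CPM embryo 4 was above it, at 1311 against at most 1240 in WT control. The part of the low totals and TE marker sums of embryos 2 and 3 in these values was not tested. The differences on the log2 scale were -0.31 for S100A14 (standard error 0.60) and -0.41 for S100A16 (standard error 0.54), both within the spread among embryos. Quantile normalization turned the sign of both, to 0.17 and 0.01, and so did leaving out embryos 2 and 3, to 0.63 and 0.39, leaving out embryo 3 alone, to 0.26 and 0.03, and the Y-linked covariate (embryo 5 alone against WT control), to 0.79 and 0.28. S100A14 was also above 0 in edgeR and DESeq2, at 0.03 and 0.05. Both genes went together across the 7 embryos (r = 0.97), and each with ANXA2 (r = 0.92 and 0.98). Without embryos 2 and 3 these were 0.84, 0.78 and 0.99, over 5 embryos.

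In GATA3 KO embryos no member passed the threshold. limma called 0 of the 6 members tested and 2.01% of the 4271 transcripts. edgeR and DESeq2 also called 0 members, beside 2.95% and 3.7% of transcripts. At an unadjusted p under 0.05 there were 2 members, S100A10 and S100A11, where 22.6% of transcripts reached it. The groups overlapped for every member, while they did not for 18.9% of transcripts, with GATA3 KO above WT control for 11.9% and below for 7.05%. The median log2 difference was 0.55 over the 6 members and 0.11 over all transcripts tested. The former lies between S100A5 and S100A2, at 0.46 and 0.64, and so depends on single embryos. These differences were -0.10 and -0.23 without GATA3 KO embryo 3, and 1.34 and 1.07 without GATA3 KO embryo 6.

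**Figure D3:**
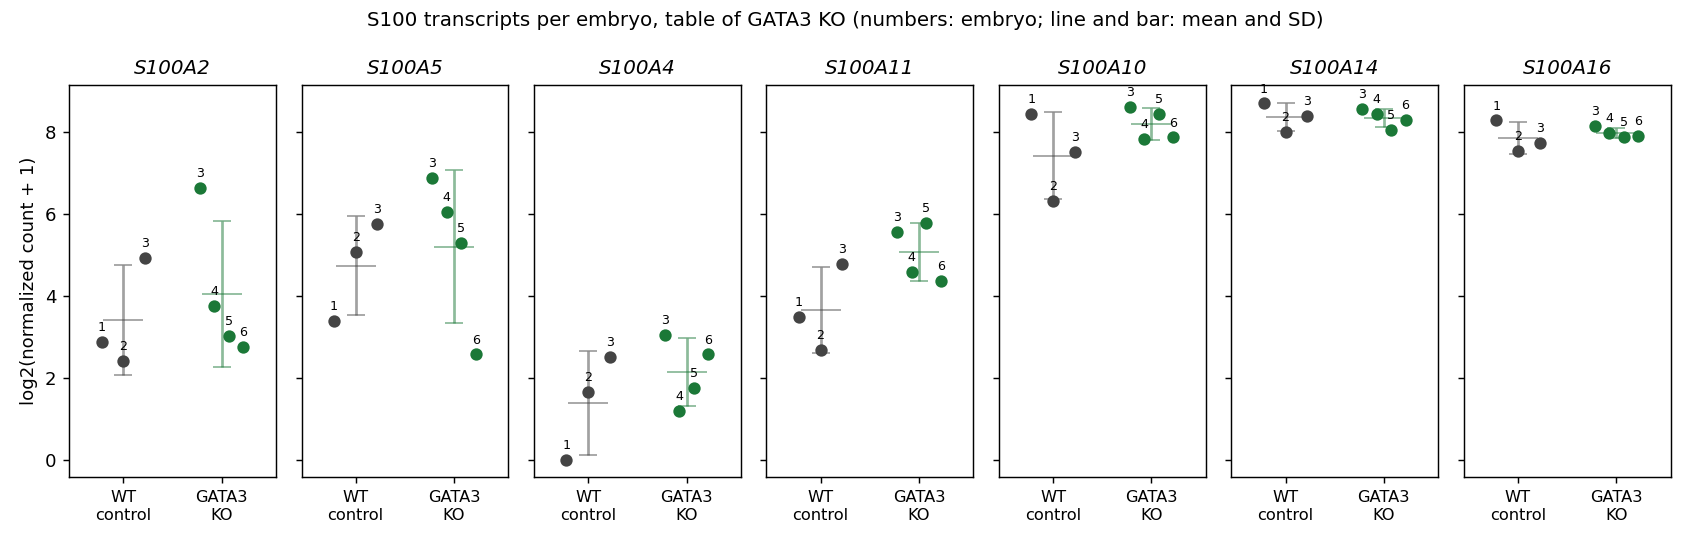
Each point is an embryo of the table of GATA3 KO, numbered, on a log2(normalized count + 1) axis, with WT control (n = 3) in grey and GATA3 KO (n = 4) in green, and the line and bar give the mean and SD. GATA3 KO embryo 3 is the highest for S100A2 and S100A5, embryo 6 is the lowest for S100A5, and S100A14 and S100A16 vary little.

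For S100A2, WT control embryos 1 to 3 had normalized counts of 6.31, 4.32 and 29.5, and GATA3 KO embryos 3 to 6 had 98.4, 12.5, 7.15 and 5.75. Only GATA3 KO embryo 3 exceeded the WT control range. The log2 difference was 0.64 (standard error 0.74, limma, adjusted p = 0.637). It was -0.23 without that embryo and -0.65 with the Y-linked covariate, which sets embryo 6 alone against WT control, but 1.40 without WT control embryo 3, 1.07 without GATA3 KO embryo 6, and 1.12 and 1.13 in edgeR and DESeq2. It was below the 0.64 also without WT control embryos 1 and 2, at 0.37 and 0.14, and above it without GATA3 KO embryo 5, at 0.98.

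For S100A5, WT control embryos 1 to 3 were at 9.47, 32.4 and 52.8, and GATA3 KO embryos 3 to 6 at 116, 65.5, 38.1 and 4.93. Embryos 3 and 4 lay above every WT control embryo and embryo 6 below them, so that the GATA3 KO embryos covered a range of 23.5-fold. Y-linked counts were found in embryo 6, as in all WT control embryos, and in no other GATA3 KO embryo above 1 count. The log2 difference was 0.46 (standard error 0.71, adjusted p = 0.732 from limma). It was -2.17 with the Y-linked covariate, a value that compares embryo 6 alone with the WT control embryos, -0.21 without WT control embryo 1, -0.10 without GATA3 KO embryo 3 and 0.17 without GATA3 KO embryo 4. In the other direction it was 1.34 without GATA3 KO embryo 6 (adjusted p = 0.113 from limma), 0.97 without WT control embryo 3, and 0.77 and 0.72 in edgeR and DESeq2.

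S100A11 had the largest difference among the members in GATA3 KO embryos. WT control embryos 1 to 3 had normalized counts of 10.3, 5.40 and 26.4, and GATA3 KO embryos 3 to 6 had 46.3, 22.8, 53.6 and 19.7. Embryos 3 and 5 exceeded every WT control embryo, and embryos 4 and 6 lay below WT control embryo 3. The mean was 14.03 ± 11.01 (SD, n = 3) against 35.6 ± 16.9 (SD, n = 4), and the log2 difference was 1.42 (standard error 0.45, adjusted p = 0.0807 from limma). It stayed positive under each alternative and without each embryo, from 0.72 to 1.98, and passed the threshold only without WT control embryo 3 (adjusted p = 0.0496 from limma), with adjusted p of 0.0505 to 0.701 in the others.

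For S100A10, WT control embryos 1 to 3 were at 346, 78.9 and 180, and GATA3 KO embryos 3 to 6 at 392, 227, 347 and 232. The GATA3 KO embryos were closer together than the WT control embryos, over a range of 1.73-fold against 4.38-fold. Embryos 3 and 5 lay above every WT control embryo, embryo 5 only just, and embryos 4 and 6 within the WT control range. The log2 difference was 0.77 (standard error 0.36, adjusted p = 0.217 from limma). It depended on the control embryos, being 1.28 without WT control embryo 1 (adjusted p = 0.0243) and 0.22 without WT control embryo 2 (adjusted p = 0.776). ANXA2 was at 585 to 691 in GATA3 KO embryos and at 271 to 750 in WT control embryos, and its log2 difference was 0.71 (standard error 0.29, adjusted p = 0.167 by limma). The ratio of S100A10 to ANXA2 was 0.336 to 0.579 in GATA3 KO embryos, within the 0.291 to 0.617 of WT control embryos.

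S100A14 and S100A16 differed least. For S100A14, WT control embryos 1 to 3 were at 413, 256 and 336, and GATA3 KO embryos 3 to 6 at 376, 347, 264 and 314. S100A16 was at 310, 184 and 211 and at 281, 251, 233 and 238 in the same embryos. Every GATA3 KO embryo lay within the WT control range for both genes in normalized counts, while in CPM embryo 5 was below it for S100A14, at 1079.6 against at least 1141 in WT control. The log2 difference was -0.03 for S100A14 (95% interval -0.52 to 0.47, adjusted p = 0.956 from limma) and 0.13 for S100A16 (95% interval -0.37 to 0.62, adjusted p = 0.785), and neither sign was stable, S100A14 being at 0.07 under quantile normalization and S100A16 at -0.01 in edgeR and DESeq2. S100A4, with a mean of 3.24, was not tested. It stood at 0, 2.16 and 4.66 in WT control and at 7.24, 1.29, 2.38 and 4.93 in GATA3 KO embryos, from at most 6 counts.

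**Figure D4:**
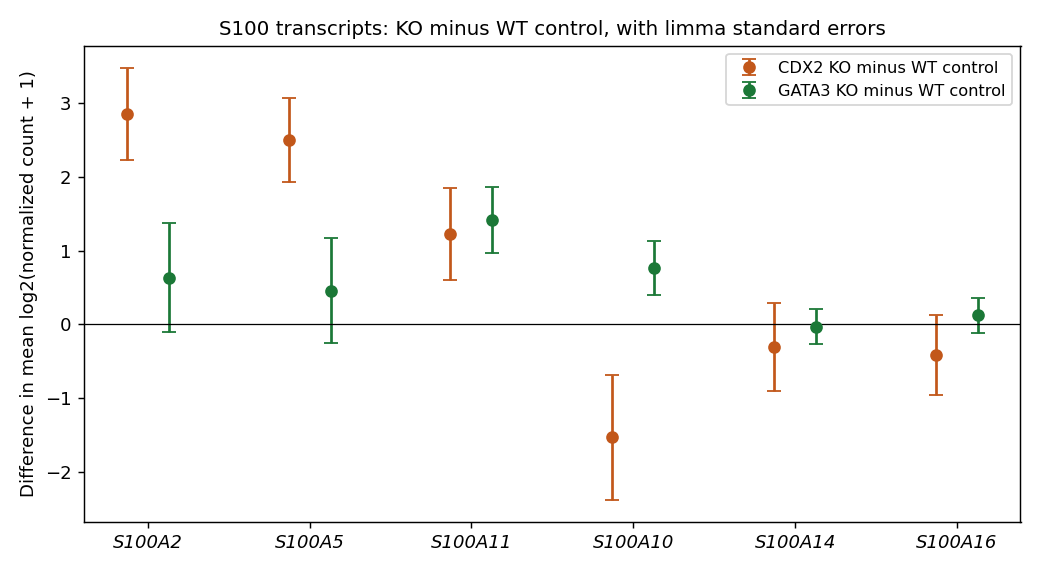
Difference in mean log2(normalized count + 1) between KO and WT control embryos for the 6 members tested, with CDX2 KO in orange, GATA3 KO in green and bars giving the standard error from limma. The values for S100A2 and S100A5 are 2.86 and 2.50 in CDX2 KO and 0.64 and 0.46 in GATA3 KO embryos, and those for S100A11 are 1.23 and 1.42.

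Since both comparisons share the WT control embryos and the tables were normalized separately, no test was made between the knockouts, and the values are set side by side. In CPM the shared WT control embryos had nearly equal values of S100A2 and S100A5 in both tables. S100A2 was at 25.0, 18.1 and 127 in WT control embryos 1 to 3 in the table of CDX2 KO and at 25.0, 19.2 and 127 in that of GATA3 KO. It ran from 183 to 685 CPM in CDX2 KO embryos and from 23.1 to 408 CPM in GATA3 KO embryos. S100A5 ran from 447 to 1054 CPM in CDX2 KO, from 19.8 to 480 CPM in GATA3 KO and from 37.5 to 227 CPM in WT control embryos over both tables. GATA3 KO embryo 3 was thus the only embryo of its group that reached the range of CDX2 KO embryos for either gene. The WT control embryos had more counts in the table of CDX2 KO, by a median factor of 1.89 over the 11 member values of at least 30 counts. Over all transcripts of at least 30 counts the median factor was 1.87, 1.81 and 1.87 in WT control embryos 1 to 3.

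**Figure D5:**
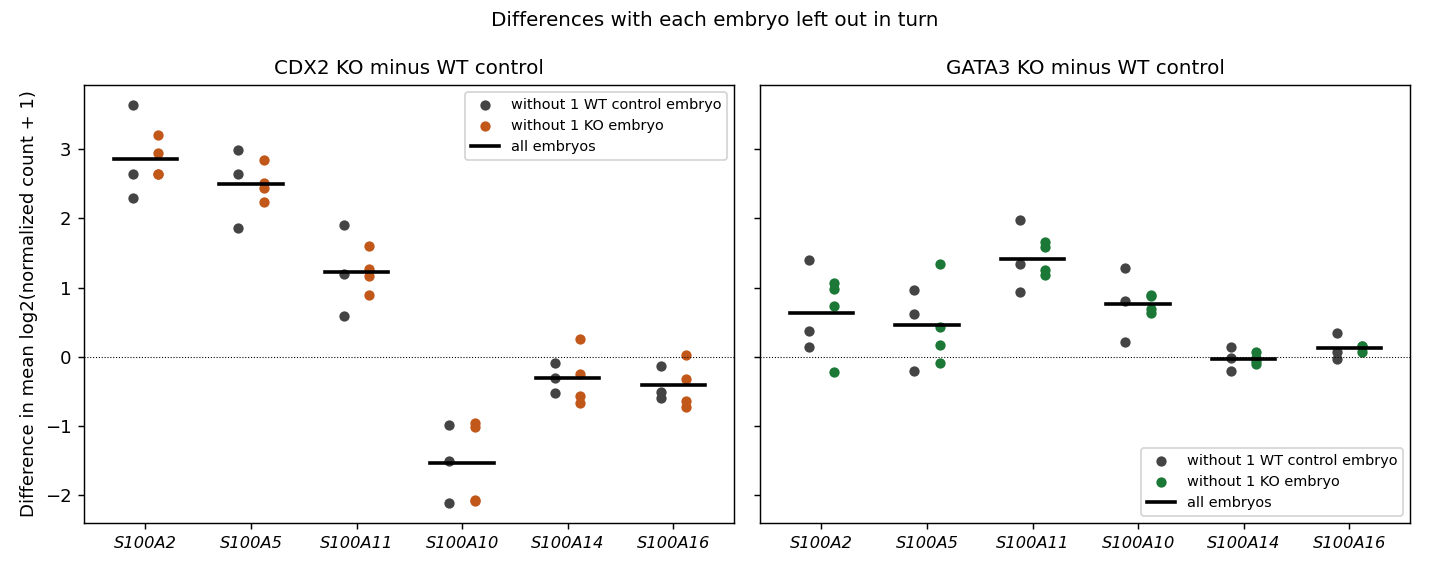
Difference in mean log2(normalized count + 1) for the 6 members tested, with all embryos (black line), without each WT control embryo (grey points) and without each KO embryo (coloured points). S100A2 stays between 2.30 and 3.64 and S100A5 between 1.87 and 2.996 in CDX2 KO, while both cross 0 in GATA3 KO embryos.

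Across the 7 embryos of the table of GATA3 KO, r between S100A2 and S100A5 was 0.71, between S100A2 and S100A11 0.60 and between S100A10 and S100A16 0.86, on the log2 scale and over shared libraries. Across those of CDX2 KO the same pairs had r of 0.75, 0.73 and 0.88, and of 0.84, 0.95 and 0.81 without embryos 2 and 3, where S100A2 and S100A5 had been picked for their difference between the groups and r includes it. Likeness over these embryos includes that difference too, and was computed over all 7 embryos only. In the table of CDX2 KO, the transcripts whose pattern was most like that of S100A2 among 5718 others were FANCI, TRAPPC4, MOSPD1, KRI1 and COL12A1 (r from 0.91 to 0.95), and those most like S100A5 were PHRF1, CSF1R, NUCB1, KMT5B and FLNC (r from 0.89 to 0.94). Beside GATA3 KO they were CENPH, KTN1, ROCK2, KDM3A and STARD3NL for S100A2 (r from 0.89 to 0.95) and KIF2A, NUCB1, WWP1, CALCOCO2 and FMR1 for S100A5 (r from 0.93 to 0.97), among 4270 others.

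The remaining S100 genes had few counts, as did S100PBP, which is no family member but encodes a protein that binds S100P. S100B, which is best known from glia, S100A3 and S100PBP were listed in both tables, and S100A1 and S100A9, of heart muscle and of myeloid cells, in that of CDX2 KO. None reached a mean of 10, and their highest value in any embryo was 20.7, for S100A3 in CDX2 KO embryo 4. S100B was at 1.27 to 7.90 in WT control and 3.22 to 18.6 in CDX2 KO embryos, from at most 10 counts.

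Of 20 genes for proteins that bind S100 proteins, 13 were tested in the table of GATA3 KO and 14 in that of CDX2 KO, and none passed the threshold in either, beside 2.01% and 0% of all transcripts. In GATA3 KO embryos 10 of the 13 were higher and 3 lower, with a median log2 difference of 0.50, against 0.11 over all transcripts tested. CAPZA1, which encodes an actin-capping subunit, and ANXA6 came closest, at 0.89 (standard error 0.25, adjusted p = 0.0555 from limma) and -0.98 (standard error 0.29, adjusted p = 0.0676). CACYBP, a ligand of S100A6 and other members, was at 0.53 (adjusted p = 0.217) and ANXA1, the partner of S100A11, at 0.84 (adjusted p = 0.245). In CDX2 KO embryos 5 of the 14 were higher and 9 lower, with a median of -0.38 against -0.15 over all transcripts. Without CDX2 KO embryos 2 and 3 this turned to 13 higher and 1 lower, with a median of 0.32 against 0.06. MYH9, the non-muscle myosin bound by S100A4, had a log2 difference of -0.16 in GATA3 KO embryos (adjusted p = 0.727 from limma) and of 0.09 in CDX2 KO embryos.

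Other EF-hand proteins, such as calmodulins, calpains and actinins, also had no gene past the threshold, with 27 of 35 tested in GATA3 KO embryos (18 higher and 9 lower) and 28 in CDX2 KO embryos (9 higher and 19 lower). Their median log2 differences, 0.07 and -0.15, were close to the 0.11 and -0.15 of all transcripts, of which 2.01% and 0% were called. Without CDX2 KO embryos 2 and 3, 19 were higher and 9 lower, with a median of 0.21. Among the TE markers, 13 were tested in GATA3 KO embryos, of which GATA3 and GATA2 fell and TFAP2C rose, with log2 differences of -2.62, -1.16 and 1.03 (adjusted p = 7.64e-05, 0.0344 and 0.0442 from limma), where 2.01% of all transcripts were called. GATA3 was called under all 17 alternatives that gave it a value, GATA2 under 11 and TFAP2C under 8. Without WT control embryo 2 or GATA3 KO embryo 3 the adjusted p from limma was 0.148 and 0.101 for GATA2 and 0.180 and 0.0874 for TFAP2C, and both also lost the call without WT control embryo 3 (0.0677 and 0.0933) and GATA3 KO embryo 4 (0.115 and 0.117), and TFAP2C without GATA3 KO embryo 5 (0.0879). GATA2 and TFAP2C encode transcription factors of the TE. None of the 14 TE markers tested passed in CDX2 KO embryos, where 11 were lower and 3 higher (median -0.58), and 10 lower and 4 higher without embryos 2 and 3 (median -0.20). In GATA3 KO embryos 8 of the 13 TE markers were lower (median -0.37), as were 4 of 5 primitive endoderm markers (median -1.08) and 2 of 4 markers of the inner cell mass and epiblast (median -0.47), the latter lists with no gene past the threshold. In CDX2 KO embryos the medians of these were -0.30, with all 5 lower, and 0.24, with 2 of 5 lower, and without embryos 2 and 3 they were -0.65 and 0.26. The part of these markers in the values of S100 genes and their partners was not tested.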

How the data were processed

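Single-blastocyst RNA was sequenced by Smart-seq2 from polyadenylated RNA, and no molecular identifiers are described. Per the submitters' notes and the methods, the authors used Trimmomatic for trimming, HISAT2 for mapping (ARS-UCD1.2), featureCounts for counting and DESeq2 for normalization. The deposited signal of an embryo is its normalized count, the count over that table's size factor. Besides, the deposited tables carry DESeq2 results of the authors (log2 fold change and its standard error, Wald score, p-values), and these were left aside. The WT control columns could be tied to samples, the KO columns only to a group, and 0 columns of sample values were left over. The labels do not say which embryos shared a fertilization batch, so p-values measure the spread between these embryos.

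RefSeq's annotation of ARS-UCD2.0 gave symbols for 98.6% of accessions. limma 3.58.1 (R 4.3.3, trended prior) was fitted within each table to log2(normalized count + 1), leaving out transcripts whose mean was under 10, and p-values were adjusted by Benjamini-Hochberg over the whole table. The threshold was an adjusted p up to 0.05 with a fold change from 1.5 upwards or from 0.6 downwards. This scale understates differences of low counts. edgeR 4.0.16 and DESeq2 1.42.0 were run on the recovered counts (whole within 0.001). The floor of 3 counts equals 4.53 to 29.8 CPM and, like other counting limits, covers counting error only. The code was tested on simulated data. Ratios and figures were made with Python 3.11.15, pandas 2.3.3 and matplotlib 3.10.9.

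The members and lists were chosen with earlier results of these data known. Named were the members, other S100 genes and S100PBP where listed, the targeted genes, list genes past the threshold in GATA3 KO embryos, and the 5 transcripts with the highest Pearson r to S100A2 and to S100A5 in each table. ANXA1, ANXA2, ANXA6, CACYBP, CAPZA1, MYH9 and KRT8 were added after their values were seen. The lists of inner cell mass, primitive endoderm and sperm markers had 0 genes past the threshold in either table. Alternatives were other pseudocounts, filters, scalings, fold thresholds and priors, a Y-linked covariate, and leaving out each embryo. Leaving out CDX2 KO embryos 2 and 3 together was added after the data were seen.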

Additional observations from a re-analysis of the deposited data

Results flagged for a closer look

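In each KO group the gap between an extreme embryo and its neighbour was compared with the range of the 4 embryos, for 26 combinations of gene and group. On normalized counts it passed Dixon's 95% critical value in 3 of them, which chance passes in about 1 of 20 groups of normally distributed values. S100A2 was 98.4 (normalized count) in GATA3 KO embryo 3, where the next highest embryo was at 12.5 and the lowest at 5.75. S100A4 was 38.1 in CDX2 KO embryo 4, where the next highest was at 7.35 and the lowest at 2.68. The targeted GATA3 transcript was 9.85 in GATA3 KO embryo 6, just below the 12.9 to 13.1 of the other 3 GATA3 KO embryos. On the log2(normalized count + 1) scale the gap was 0.74 of the range for S100A2 and 0.65 for S100A4, under that critical value, and 0.95 for GATA3.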

How the results depend on the processing

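The count of S100 members past the threshold in GATA3 KO embryos was 0 under all 11 alternatives other than leaving out an embryo, and 0 to 1 with each embryo left out, being 1 without WT control embryo 1 (S100A10) and without WT control embryo 3 (S100A11). In CDX2 KO embryos it was 0 under 11 of 12 alternatives and in all 7 fits that left out an embryo, and 2 in DESeq2 on the recovered counts (S100A2 and S100A5). These members were picked through that comparison, so nothing is read from the counts. The cause was not tested. The log2 differences of S100A10 and S100A11 in GATA3 KO embryos kept their sign under all alternatives run. S100A10 in CDX2 KO embryos turned to 0.07 with the Y-linked covariate, a fit in which 1 KO embryo alone is set against WT control. The number of all transcripts called in GATA3 KO embryos ran from 1 (with the Y-linked covariate, or without WT control embryo 2 or GATA3 KO embryo 3) to 304 (without WT control embryo 1), against 86. Of these 86, 66 were higher and 20 lower, and quantile normalization gave 48 higher and 57 lower, moving the median difference of all transcripts from 0.11 to 0.003. In CDX2 KO embryos it moved this median from -0.15 to -0.04. No paired analysis was possible because the columns of KO embryos do not carry the replicate numbers of the labels. Counts at or under the floor limit S100A4 and the remaining S100 genes.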
